A study of Homo sapiens with 12 samples.

Results

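Growth factor receptor genes that are followed in studies of drug resistance in melanoma were taken by name from a table of 56638 gene symbols, and 10 of the 10 were listed. They are MET, KIT, IGF1R, FGFR1, ERBB2, ERBB3, EGFR, AXL, PDGFRB and NGFR. All but NGFR belong to the receptor tyrosine kinases, so the common name of the list does not hold for NGFR, a neurotrophin receptor of the TNF receptor superfamily that has no kinase domain. The receptors were measured by mRNA sequencing in 501Mel, a single established human melanoma cell line driven by a mutant BRAF kinase, and the study asked how ligands of the aryl hydrocarbon receptor (AhR) bear on the response to BRAF inhibition. Treatment lasted 48 h in every group and consisted of DMSO alone (vehicle), 1 µM vemurafenib (Vem, a BRAF inhibitor), 10 nM TCDD (a dioxin that activates AhR), 5 µM resveratrol (RSV, a plant polyphenol used as an AhR antagonist), RSV with Vem or RSV with TCDD. There were 2 libraries per treatment and 12 in all. The treatment protocol gives 10 nM TCDD for RSV+TCDD, while the label of those libraries gives 1 nM, so the dose of TCDD in that group is not certain.

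A receptor tyrosine kinase spans the plasma membrane, binds a growth factor outside the cell and pairs with another receptor, after which the kinase domains phosphorylate each other. Adaptor proteins dock on the phosphorylated tails and pass the signal to RAS, the MAPK cascade and PI3 kinase. In melanoma that carries mutant BRAF, signalling through such receptors is a known route by which cells tolerate BRAF inhibitors, and melanocytes themselves depend on KIT during development.

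Counts on genes ranged from 8378655 to 25076925 per library, RIN values from 8.6 to 9.7, and ERCC spike-ins took 0.0310% to 0.0936% of counts. The lowest RIN values, 8.7 and 8.6, were both in RSV+Vem, so RNA quality and that treatment cannot be told apart. RSV+Vem replicate 2 was also the shallowest library. The spike-in share differed within RSV+Vem (0.0389% and 0.0903%) and RSV+TCDD (0.0630% and 0.0936%), and was closer in vehicle (0.0316% and 0.0310%). The count tables were scaled with TMM factors, and levels are given as CPM, that is, counts relative to the scaled library size. All 9 melanocytic markers of a fixed list (among them MITF, SOX10, PMEL and TYR) exceeded 1 CPM in every library, whereas KRT5, KRT14, KRT1, COL3A1, PECAM1 and CD3E had at most 3 counts in any library. Other markers of non-melanocytic types were counted in every library: LUM (5.69 to 38.2 CPM), FAP (1.33 to 3.69) and KRT10 (13.7 to 26.0). COL1A1, CDH1, VWF and CD68 reached 1 CPM in some libraries. Differences were tested with edgeR's quasi-likelihood F test over 16080 genes with Benjamini-Hochberg adjustment, which is the source of every adjusted p below, and differences with an adjusted p under 0.05 were called. No source states whether the libraries of a group came from separate cultures, so the p-values measure the spread between these libraries, which may be technical. In bulk RNA, fewer cells that express a gene and less RNA of it per cell cannot be told apart. TMM sets the typical gene to no change. Scaled to the spike-ins, the median of all tested genes moved by -0.68 with Vem, by -0.51 with TCDD, by -0.17 with RSV, by -0.70 with RSV+Vem and by -1.20 with RSV+TCDD against vehicle (log2), so each change below is relative to the typical gene. Spike-in scaling is itself uncertain, since the spike-in share differed between replicates. The SE of MET with Vem, for example, was 0.429 under it and 0.0985 under TMM. For called changes of the 10 receptors, the directions that turned under this scaling to the spike-ins are named. Uncalled changes are mostly given without it. Ligands, other receptors, adaptors, negative regulators and the other listed genes were not examined under it, so their directions could turn.

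The sequences before the transcription starts of 3 members are shown because KIT and EGFR were the members called higher with the AhR ligand TCDD, and MET was the most abundant member and moved with Vem and with RSV. The windows come from RefSeq, hold up to 250 bases before the start, end before any annotated exon, and are given on the GRCh37 build. Capitals mark GCGTG or its reverse complement CACGC, the core of the sequence that AhR binds together with ARNT.

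KIT, chr4:55523874-55524055, plus strand, 182 bases: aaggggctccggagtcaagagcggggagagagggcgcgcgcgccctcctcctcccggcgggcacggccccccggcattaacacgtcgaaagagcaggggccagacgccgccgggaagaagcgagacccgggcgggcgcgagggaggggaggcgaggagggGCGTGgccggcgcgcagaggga
EGFR, chr7:55086460-55086709, plus strand, 250 bases: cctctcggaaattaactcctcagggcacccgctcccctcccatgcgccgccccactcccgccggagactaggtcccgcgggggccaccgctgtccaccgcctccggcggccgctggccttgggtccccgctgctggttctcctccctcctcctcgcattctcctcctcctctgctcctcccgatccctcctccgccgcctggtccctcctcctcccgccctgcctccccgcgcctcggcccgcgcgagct
MET, chr7:116312000-116312249, plus strand, 250 bases: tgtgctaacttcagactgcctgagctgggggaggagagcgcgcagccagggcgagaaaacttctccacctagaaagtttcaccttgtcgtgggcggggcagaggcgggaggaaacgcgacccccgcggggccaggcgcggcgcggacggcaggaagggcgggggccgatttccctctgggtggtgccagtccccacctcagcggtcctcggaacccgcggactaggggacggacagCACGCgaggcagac

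The KIT window held the core once, 90 bases before the RefSeq start, and lay outside annotated exons but within the bounds of the gene, since a longer transcript begins upstream. The MET window held it once, 14 bases before the start. The EGFR window shown held none, and neither did the other window listed for EGFR, at an internal start. Searching both strands of 9 windows, 5 of the 7 members that were scanned (AXL, IGF1R, KIT, MET and PDGFRB) had at least 1 GCGTG. AXL had it only in its second window, at an internal start, and IGF1R had 4. Of 35116 single promoter windows of 250 bases, 32.2% had it. These shares are not like for like, since some members had more than 1 window, some windows were shorter, and GC content was not matched. TGAGTCA, which AP-1 binds, was found in 1 member, EGFR, at the internal start (4.20% of all windows), and CACGTG, an E-box, in none (6.34% of all windows). ERBB3 and NGFR were not scanned, nor was FGFR1. A match is a string of letters in a window and not a measured binding site, and members with and without it are found below both among those that moved and those that did not.

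The 10 receptors spanned a wide range of levels. Divided by the length of their exons, which allows genes to be compared, mean levels were 87.5 CPM per kb for MET, 38.6 for KIT, 13.1 for IGF1R, 4.70 for FGFR1, 1.28 for ERBB2 and 0.798 for ERBB3. These 6 receptors, called well-counted below, had between 76 and 15750 counts in every library. NGFR (0.192 CPM per kb), EGFR and PDGFRB (0.0185 each) and AXL (0.0116) were low-count genes with 0 to 34 counts in any library. AXL and PDGFRB did not pass the filter on low counts and were not tested. EGFR and NGFR passed it only through the groups in which they were highest, so their calls are described by their counts and are not added up as evidence about the list.

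**Figure D1:**
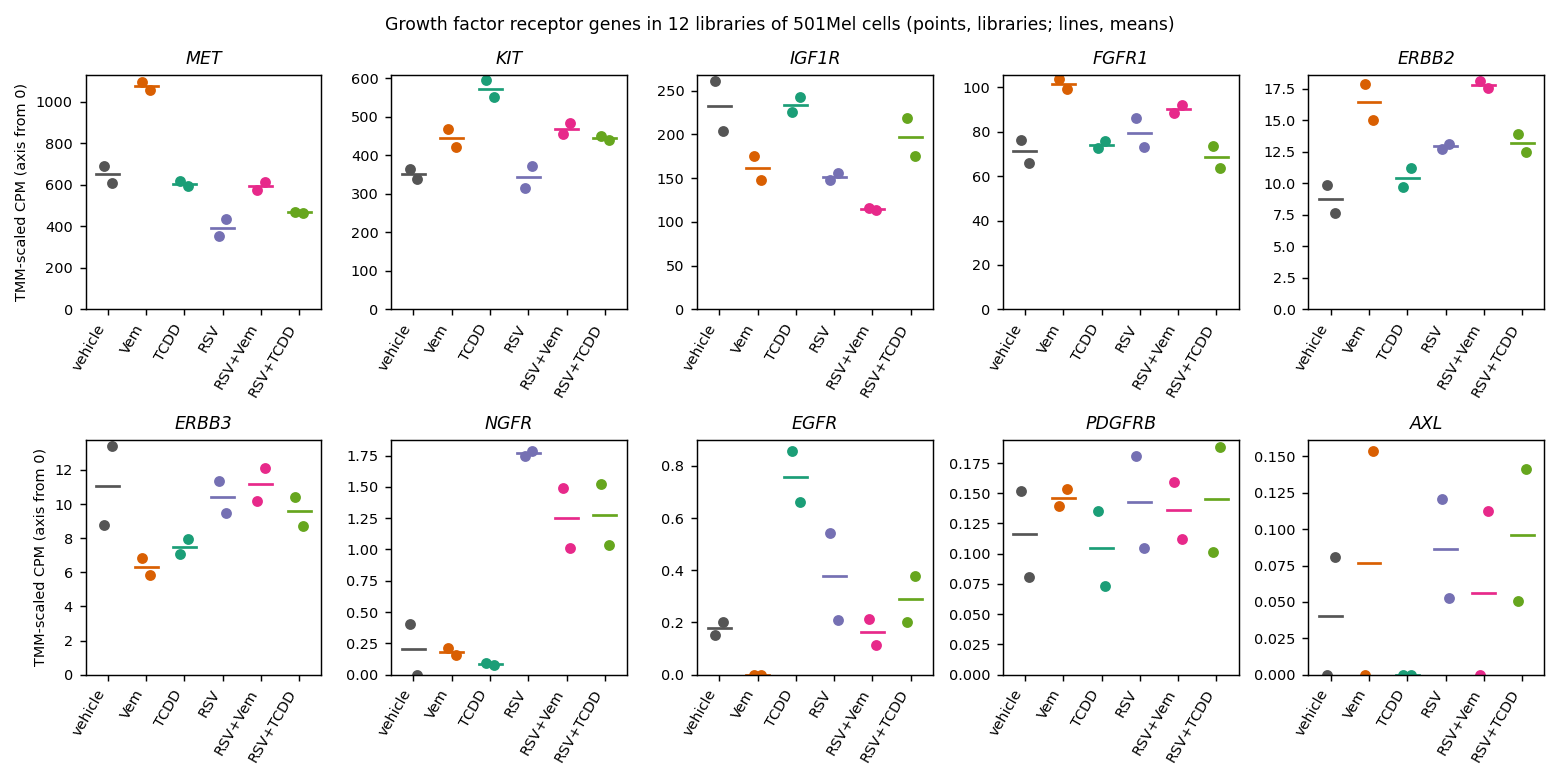
Level of each receptor gene in the 12 libraries as TMM-scaled CPM (y axis, from 0, with its own scale per panel), by treatment (x axis). Points are libraries and lines are the means of 2 libraries. MET is highest with Vem, at 1095 and 1058 CPM, KIT is highest with TCDD, at 595 and 550 CPM, and NGFR is above 1 CPM only in the 6 libraries with RSV.

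Vem moved 6 of the 6 well-counted receptors against vehicle, at a background of 52.4% of all tested genes: MET, KIT, FGFR1 and ERBB2 were called higher (25.4% of all genes), KIT and FGFR1 with a direction that turned under spike-in scaling, and IGF1R and ERBB3 lower (27%). TCDD moved 1 of the 6, KIT, which was higher, where 6.41% of all genes were called and 4.5% were called higher. RSV moved 3 of the 6, where 40.9% of all genes were called. ERBB2 was higher (20.5% of all genes) and MET and IGF1R lower (20.4%). RSV+Vem moved 4 of the 6 against vehicle (background 48.9%) and RSV+TCDD moved 3 (background 43.8%). The median log2 fold change of the 6 was 0.43 with Vem, 0.03 with TCDD and -0.07 with RSV, against -0.03, -0.00464 and -0.00176 for all tested genes. All these comparisons share the vehicle libraries, so they are not independent of each other. As a list the receptors had no common direction with Vem or RSV, and the results are therefore given receptor by receptor.

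**Figure D2:**
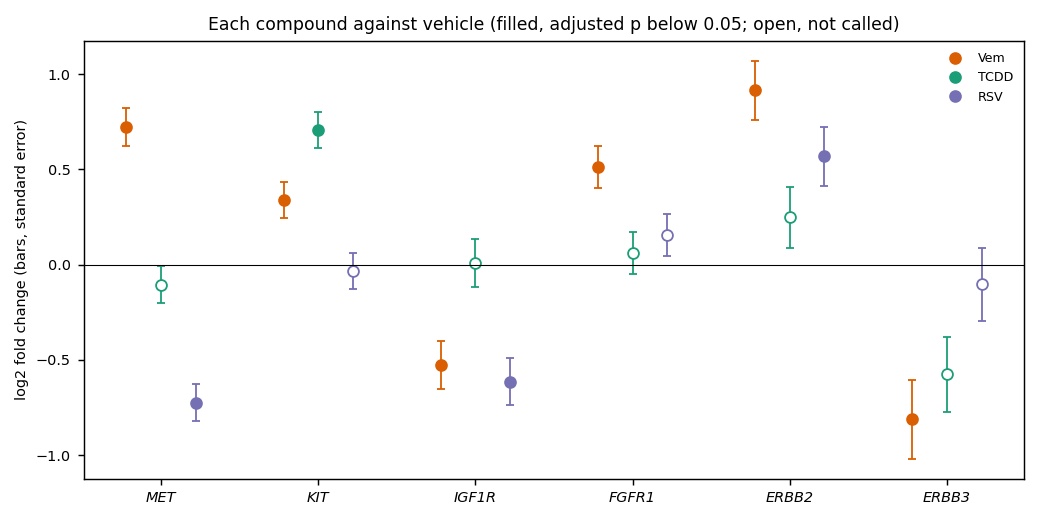
Log2 fold change against vehicle (y axis) of the 6 well-counted receptors (x axis) with Vem, TCDD and RSV. Bars are standard errors from the edgeR fit, filled points are called at an adjusted p under 0.05 and open points are not. With Vem all 6 points are filled, 4 above the line (of which KIT and FGFR1 turned under spike-in scaling) and 2 below it, and with TCDD only KIT is filled.

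MET, on chromosome 7 (116312250 to 116438431, plus strand, GRCh37), encodes the receptor of hepatocyte growth factor. Its levels were 693 and 610 CPM in the vehicle libraries, 1095 and 1058 with Vem, 619 and 594 with TCDD, 354 and 434 with RSV, 577 and 612 with RSV+Vem, and 471 and 467 with RSV+TCDD. Both Vem libraries lay above all others, and both RSV libraries lay below all others. MET rose with Vem by 0.72 on the log2 scale (SE 0.0985, adjusted p = 1.26e-05), a linear fold of 1.65. RSV lowered it by a similar size, with a log2 fold change of -0.72 (SE 0.0987, adjusted p = 3.88e-05). The direction with Vem held when the counts were scaled to the spike-ins, but the value then was 0.07 and was not called. Between vehicle, TCDD and RSV+Vem, which are neighbours in the order of levels, MET did not differ beyond its spread, with adjusted p = 0.578 for TCDD against vehicle and 0.831 for RSV+Vem against TCDD. RSV+TCDD lay above RSV by 0.25 (SE 0.0984, adjusted p = 0.154), which was not called.

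The effect of RSV on MET was in the same direction on each background. RSV+Vem was below Vem by a log2 fold change of -0.86 (SE 0.0989, adjusted p = 5.98e-06) and RSV+TCDD below TCDD by -0.37 (SE 0.0983, adjusted p = 0.00736), although the latter was -0.34 and no longer called without TCDD replicate 1 (adjusted p = 0.0663). Vem likewise raised MET on top of RSV by 0.59 (SE 0.0988, adjusted p = 0.000465), and it was above TCDD by 0.83 (SE 0.0987, adjusted p = 3.21e-06). RSV+TCDD was below vehicle by -0.48 (SE 0.0983, adjusted p = 0.00112). Under spike-in scaling the values kept their direction, but Vem on top of RSV was 0.07 (adjusted p = 0.929), Vem against TCDD 0.68 (adjusted p = 0.38), RSV against vehicle -0.91 (adjusted p = 0.333), RSV+Vem against Vem -0.92 (adjusted p = 0.354) and RSV+TCDD against TCDD -1.06 (adjusted p = 0.0807), none of them called. The interactions, which test whether the effect of RSV depends on the other compound, were -0.13 with Vem (SE 0.139, adjusted p = 0.53) and 0.35 with TCDD (SE 0.139, adjusted p = 0.523), neither of them called.

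KIT, on chromosome 4 (55523434 to 55606949, plus strand), encodes the receptor of stem cell factor, which melanocyte precursors need to survive and migrate. The vehicle libraries had 363 and 339 CPM, the Vem libraries 468 and 421, the TCDD libraries 595 and 550, the RSV libraries 314 and 372, the RSV+Vem libraries 455 and 483, and the RSV+TCDD libraries 450 and 438. TCDD gave the 2 highest libraries of the 12, and vehicle and RSV overlapped at the low end. KIT rose with TCDD by 0.71 (SE 0.0955, adjusted p = 0.000389), a linear fold of 1.63, and this was the one well-counted receptor called with TCDD. The value was 0.20 and not called under spike-in scaling (adjusted p = 0.753). Vem raised KIT by 0.34 (SE 0.0954, adjusted p = 0.00674), but the direction turned to -0.31 under spike-in scaling, and without Vem replicate 1 the value was 0.26 (adjusted p = 0.0822). Against TCDD, Vem was lower by a log2 fold change of -0.37 (SE 0.0953, adjusted p = 0.00425), which was not called without Vem replicate 2 (-0.29, adjusted p = 0.058) or without TCDD replicate 1 (-0.31, adjusted p = 0.055), nor under spike-in scaling (-0.51, adjusted p = 0.554).

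RSV alone left KIT at a log2 fold change of -0.03 (SE 0.0953, adjusted p = 0.809). In cells given TCDD, the libraries with RSV were lower by -0.37 (SE 0.0951, adjusted p = 0.00645), or by -0.31 and no longer called without TCDD replicate 1 (adjusted p = 0.0834), and by -1.05 and not called under spike-in scaling (adjusted p = 0.0813). TCDD on top of RSV raised KIT by 0.37 (SE 0.0953, adjusted p = 0.0321), which turned to -0.63 under spike-in scaling. That call was lost without RSV replicate 1 (0.26, adjusted p = 0.165), without RSV+TCDD replicate 1 (0.36, adjusted p = 0.122) and without RSV+TCDD replicate 2 (0.40, adjusted p = 0.0988). For KIT the interaction between RSV and TCDD was -0.33 (SE 0.135, adjusted p = 0.541) and was not called, and the uncertain TCDD dose of the RSV+TCDD group bears on each of these comparisons. Vem on top of RSV raised KIT by 0.45 (SE 0.0956, adjusted p = 0.00291), with -0.08 under spike-in scaling. The difference between RSV+Vem and Vem was 0.08 (SE 0.0955, adjusted p = 0.564). Against vehicle, KIT was higher by 0.42 with RSV+Vem (SE 0.0955, adjusted p = 0.00193) and by 0.34 with RSV+TCDD (SE 0.0952, adjusted p = 0.00894), which turned to -0.29 and -0.85 under spike-in scaling. The latter was 0.29 without vehicle replicate 2 (adjusted p = 0.0579) and 0.32 without RSV+TCDD replicate 1 (adjusted p = 0.0507).

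IGF1R, on chromosome 15 (99191768 to 99507759, plus strand), encodes the receptor of the insulin-like growth factors. It was measured at 261 and 204 CPM in vehicle, 175 and 147 with Vem, 225 and 243 with TCDD, 147 and 156 with RSV, 115 and 114 with RSV+Vem, and 219 and 176 with RSV+TCDD. The RSV+Vem libraries were the lowest of the 12, and vehicle and TCDD overlapped at the top. Vem lowered IGF1R by a log2 fold change of -0.53 (SE 0.126, adjusted p = 0.00214), or by -0.34 without vehicle replicate 1 (adjusted p = 0.042), and RSV by -0.61 (SE 0.125, adjusted p = 0.0011). With both compounds it was at -1.02 against vehicle (SE 0.128, adjusted p = 9.22e-06), a linear fold of 0.493. The interaction was 0.12 (SE 0.179, adjusted p = 0.668), so a departure from the sum of the separate log2 changes was not detected. RSV+Vem was below Vem by -0.49 (SE 0.128, adjusted p = 0.00615), a call lost without Vem replicate 1 (-0.37, adjusted p = 0.0938). It was below RSV by -0.41 (SE 0.127, adjusted p = 0.029), a call lost without RSV replicate 2 (-0.36, adjusted p = 0.119), without RSV+Vem replicate 1 (-0.42, adjusted p = 0.111) and without RSV+Vem replicate 2 (-0.39, adjusted p = 0.105).

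TCDD left IGF1R at a log2 fold change of 0.01 against vehicle (SE 0.124, adjusted p = 0.98), and Vem was below TCDD by -0.54 (SE 0.126, adjusted p = 0.00201). In cells given TCDD, RSV was at -0.24 (SE 0.125, adjusted p = 0.137), and the interaction of RSV and TCDD was 0.37 (SE 0.176, adjusted p = 0.631). Under spike-in scaling IGF1R stayed called with Vem and with RSV+Vem against vehicle, and kept its direction without a call for RSV (-0.79, adjusted p = 0.445), RSV+Vem against Vem (-0.53, adjusted p = 0.742), RSV+Vem against RSV (-0.92, adjusted p = 0.245) and Vem against TCDD (-0.68, adjusted p = 0.39).

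FGFR1, on chromosome 8 (38257733 to 38326352, minus strand), encodes a receptor of fibroblast growth factors. Levels were 76.4 and 66.1 CPM in vehicle, 104 and 99.5 with Vem, 72.8 and 75.7 with TCDD, 86.0 and 73.0 with RSV, 88.3 and 92.2 with RSV+Vem, and 73.4 and 63.6 with RSV+TCDD. All 4 libraries with Vem were above the other 8, and the other 4 groups overlapped. FGFR1 rose with Vem by 0.51 (SE 0.11, adjusted p = 0.000932), but the value was -0.14 under spike-in scaling. With RSV+Vem it was higher than vehicle by 0.34 (SE 0.111, adjusted p = 0.0181), with -0.36 under spike-in scaling. That call was lost without vehicle replicate 2 (0.25, adjusted p = 0.134), without RSV+Vem replicate 1 (0.37, adjusted p = 0.056) and without RSV+Vem replicate 2 (0.31, adjusted p = 0.0844). Neither TCDD (0.06, SE 0.11, adjusted p = 0.806) nor RSV (0.16, SE 0.11, adjusted p = 0.268) gave a call against vehicle, and Vem stood above TCDD by 0.45 (SE 0.111, adjusted p = 0.00263), or by 0.31 and not called under spike-in scaling (adjusted p = 0.767). LETM2 overlaps FGFR1 on the opposite strand, with at most 106 counts in a library. The libraries were stranded.

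ERBB2, ERBB3 and EGFR are of the same family. ERBB2 has no known ligand of its own and signals as a partner of the others, while ERBB3 binds neuregulins but has an impaired kinase. ERBB2, on chromosome 17 (37844167 to 37886679, plus strand), had 9.87 and 7.65 CPM in vehicle, 17.9 and 15.0 with Vem, 9.66 and 11.2 with TCDD, 12.7 and 13.1 with RSV, 18.1 and 17.5 with RSV+Vem, and 13.9 and 12.4 with RSV+TCDD. The 4 libraries with Vem were the highest, those with RSV but without Vem lay in between, and vehicle and TCDD overlapped at the bottom. ERBB2 rose with Vem by 0.92 (SE 0.156, adjusted p = 0.000119), a linear fold of 1.89, and with RSV+Vem by 1.03 (SE 0.156, adjusted p = 5.31e-05). Under spike-in scaling these were 0.26 (adjusted p = 0.707) and 0.34 (adjusted p = 0.588), neither of them called. It also rose with RSV by 0.57 (SE 0.155, adjusted p = 0.00809) and with RSV+TCDD by 0.60 (SE 0.153, adjusted p = 0.00526), which under spike-in scaling were 0.39 (adjusted p = 0.808) and, turned in direction, -0.59. Both of these calls rested on vehicle replicate 2, without which the values were 0.39 (adjusted p = 0.0958) and 0.42 (adjusted p = 0.0684). Vem on top of RSV raised ERBB2 by 0.46 (SE 0.153, adjusted p = 0.036), with -0.05 under spike-in scaling, and this call was lost when any 1 of the 4 libraries was left out (values of 0.44 to 0.49). With RSV, in cells given Vem, the difference was 0.12 (SE 0.153, adjusted p = 0.578). Vem was above TCDD by 0.67 (SE 0.157, adjusted p = 0.00198), or by 0.52 and not called under spike-in scaling (adjusted p = 0.586). PGAP3 and MIEN1 overlap ERBB2 on the opposite strand, with up to 121 and 574 counts in a library.

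ERBB3, on chromosome 12 (56470583 to 56497289, plus strand), was found at 8.76 and 13.4 CPM in vehicle, 6.82 and 5.84 with Vem, 7.09 and 7.94 with TCDD, 11.3 and 9.46 with RSV, 10.2 and 12.1 with RSV+Vem, and 10.4 and 8.72 with RSV+TCDD. The vehicle libraries were the farthest apart of any group, and the Vem libraries were the lowest of the 12. ERBB3 fell with Vem, by a log2 fold change of -0.81 (SE 0.207, adjusted p = 0.00353), whereas RSV+Vem was at -0.02 against vehicle (SE 0.196, adjusted p = 0.952). In cells given Vem, RSV raised ERBB3 by 0.80 (SE 0.216, adjusted p = 0.00832), a call lost without Vem replicate 2 (0.69, adjusted p = 0.0798) and without RSV+Vem replicate 2 (0.68, adjusted p = 0.053). RSV alone was at -0.10 (SE 0.191, adjusted p = 0.698). The interaction of RSV and Vem was 0.90 (SE 0.289, adjusted p = 0.0346), the one interaction called among the 6 well-counted members, where 22.7% of all tested genes were called. Vehicle replicate 2, with 13.4 CPM, carried much of this: without it the change with Vem was -0.45 (adjusted p = 0.0941) and the interaction 0.54 (adjusted p = 0.165). The interaction also lost its call without Vem replicate 1 (1.02, adjusted p = 0.0647), Vem replicate 2 (0.80, adjusted p = 0.129), RSV replicate 2 (0.77, adjusted p = 0.089) or RSV+Vem replicate 2 (0.79, adjusted p = 0.109). Under spike-in scaling the change with Vem stayed called at -1.46 (adjusted p = 0.0165), while RSV on top of Vem (0.72, adjusted p = 0.621) and the interaction (0.97, adjusted p = 1) were not. TCDD was at -0.58 (SE 0.198, adjusted p = 0.0963), which did not pass the threshold.

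**Figure D3:**
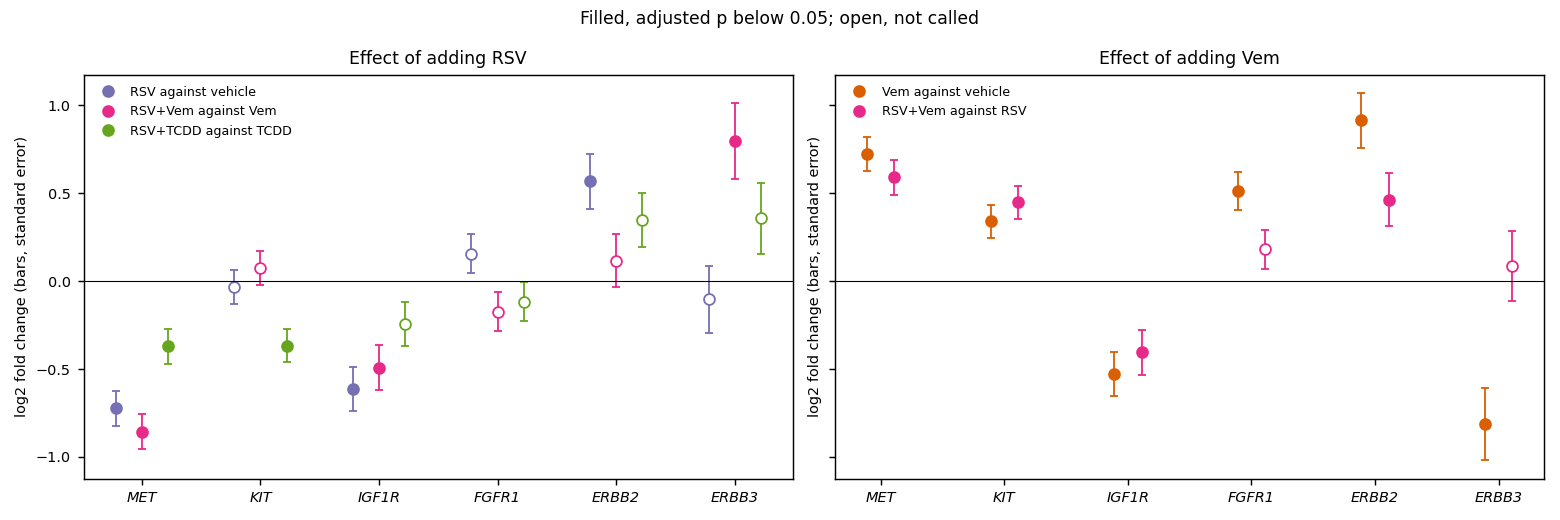
Log2 fold change (y axis) of the 6 well-counted receptors (x axis) when RSV was added to vehicle, Vem or TCDD (left) and when Vem was added to vehicle or RSV (right), with standard errors, filled where called. All 3 RSV points of MET lie below 0, between -0.86 and -0.37, and ERBB3 is the member whose point moved from -0.81 to 0.09 with Vem when RSV was present.

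In the comparisons between RSV groups and their counterparts, 3 of the 6 well-counted members were called for RSV+Vem against Vem (background 37.9%), 4 for RSV+Vem against RSV (24.4%), 2 for RSV+TCDD against TCDD (37.7%) and 1 for RSV+TCDD against RSV (5.7%). Vem against TCDD called 5 (50.7%). The interaction of RSV and TCDD called 0 members with edgeR, where 0.124% of all genes were called. With no adjustment, 2 of the 6 (KIT and MET) passed 0.05 in the same test, as did 8.05% of all tested genes, and DESeq2 called none.

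NGFR, on chromosome 17 (47572655 to 47592370, plus strand), binds neurotrophins and is known as a marker of neural crest-like melanoma cells. Its counts were 8 and 0 in the vehicle libraries, 3 and 2 with Vem, 2 and 1 with TCDD, 29 and 34 with RSV, 28 and 9 with RSV+Vem, and 30 and 22 with RSV+TCDD. In scaled units the 6 libraries with RSV had 1.01 to 1.79 CPM (median 1.51) and the 6 without it 0 to 0.405 CPM (median 0.122), with no overlap. Such a separation in the same direction was seen in 7.03% of tested genes. Ratios of the summed counts, with exact 95% intervals that cover counting error only, were 9.83 for RSV over vehicle (4.70 to 23.8), 7.32 for RSV+Vem over Vem (2.87 to 23.9) and 15.1 for RSV+TCDD over TCDD (4.90 to 75.8). All 3 differences were called (adjusted p = 0.000586, 0.00732 and 0.00123). All 8 vehicle counts came from replicate 1. Without vehicle replicate 2 the fitted log2 fold change of RSV over vehicle was 2.11 in place of 3.23 (adjusted p = 0.00397), and without replicate 1 vehicle was at 0 counts. For RSV+Vem over Vem the call was lost without Vem replicate 2 (adjusted p = 0.0618) or RSV+Vem replicate 1 (adjusted p = 0.089). The call for RSV+Vem against vehicle (adjusted p = 0.00235) was likewise lost without RSV+Vem replicate 1 (adjusted p = 0.0604). Among the RSV groups, NGFR was not called for RSV+Vem against RSV (adjusted p = 0.544) nor for RSV+TCDD against RSV (-0.47, adjusted p = 0.596). The libraries of the latter pair did not overlap, and under spike-in scaling it was called at -1.45 (adjusted p = 0.0469). RSV+TCDD against vehicle (adjusted p = 0.00235) was 1.58 and not called under spike-in scaling (adjusted p = 0.0549). The level stayed below that of ERBB3 per length throughout.

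EGFR, on chromosome 7 (55086710 to 55279321, plus strand), encodes the receptor of epidermal growth factor, and high EGFR is known from melanoma cells that have lost their pigment programme. Its counts were 3 and 5 in vehicle, 0 and 0 with Vem, 19 and 9 with TCDD, 9 and 4 with RSV, 4 and 1 with RSV+Vem, and 4 and 8 with RSV+TCDD. TCDD had the 2 highest libraries as CPM (0.857 and 0.662), and Vem had the 2 lowest. The ratio of TCDD to vehicle was 4.35 (exact 95% interval 1.93 to 11.1), and the call (adjusted p = 0.044) was lost with DESeq2 (adjusted p = 0.27) and when any 1 of the 4 libraries was left out (adjusted p between 0.132 and 0.316). Neither Vem library had a count, and the exact 95% interval for both together reached 0.135 CPM. Ratios were taken against 3 counts in them, or 0.110 CPM, and leave out the counting error of the other group. On that basis EGFR was 1.64-fold lower with Vem than in vehicle and 7.15-fold lower than with TCDD. The first was called (adjusted p = 0.0315), but not by DESeq2 (adjusted p = 0.0691) nor when any 1 of the 4 libraries was left out (adjusted p between 0.0503 and 0.129), and the second was called (adjusted p = 0.000391). RSV+TCDD had 0.374 of the level with TCDD (0.173 to 0.760), with an adjusted p of 0.0523. EGFR-AS1, on the opposite strand, had 0 counts.

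AXL, on chromosome 19 (41725128 to 41767671, plus strand), encodes a receptor for GAS6 that is known for its rise in melanoma resistant to BRAF inhibitors. It had 0 and 2 counts in vehicle, 0 and 2 with Vem, 0 and 0 with TCDD, 2 and 1 with RSV, 0 and 1 with RSV+Vem, and 1 and 3 with RSV+TCDD, 12 counts in all. The 12 libraries together gave 0.0566 CPM (0.0293 to 0.0989). PDGFRB, on chromosome 5 (149493402 to 149535435, minus strand), a receptor of platelet-derived growth factor B, had 1 to 4 counts in each library and 28 in all, which is 0.132 CPM (0.0878 to 0.191). The intervals of the groups overlapped throughout for both genes. A difference between treatments was not detectable at this depth: with no filter on low counts, neither gene was called in any of the 12 comparisons, with a lowest adjusted p of 0.371 for AXL and 0.958 for PDGFRB, and at an unadjusted 0.05 the count was 0 for both.

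**Figure D4:**
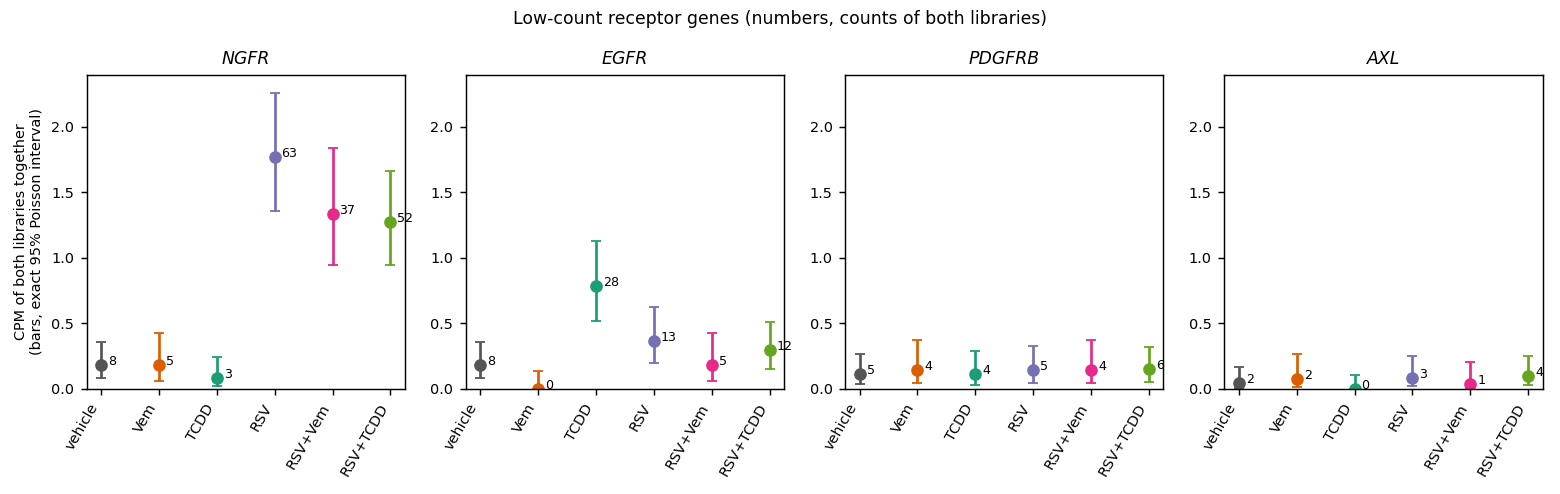
Level of the low-count receptors as CPM of both libraries of a group together (y axis, from 0), by treatment (x axis). Bars are exact 95% Poisson intervals, which cover counting error only, and the numbers beside the points are the summed counts. NGFR has 63, 37 and 52 counts in the RSV groups against 8, 5 and 3 in the others, EGFR has 28 with TCDD and 0 with Vem, and the intervals of PDGFRB and AXL overlap in all groups.

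Across the 12 libraries, the genes whose log2 CPM followed each receptor most closely, by Pearson r and given as a description over libraries that share treatments, were VDAC2 for MET (0.99), KCNS3 for KIT (0.94), ROBO1 for IGF1R (0.98), COL11A2 for FGFR1 (0.96) and C19orf82 for ERBB2 (0.97). For ERBB3 it was GFOD1 (0.88) and for NGFR it was DNAJC6 (0.97). For EGFR, whose counts are sparse and highest with TCDD, it was CD96 (0.93), followed by CYP1A1 (0.92), the classic target gene of AhR, and ARMC9 (0.91). These genes were also highest with TCDD, so the values restate that group, and a link of EGFR to AhR was not tested. Between the receptors themselves the closest pair was ERBB2 with FGFR1 (r = 0.74) and the most opposed pair ERBB2 with IGF1R (r = -0.72).

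Of the ligands of these receptors, 14 of 29 passed the filter on low counts. Vem raised 3 (25.4% of all tested genes were called higher) and lowered 5 (27% lower), and RSV raised 4 (20.5%) and lowered 2 (20.4%). Their median log2 fold change was -0.25 with Vem and 0.36 with RSV. Some of the 14 were low, such as NRG1 and FGF1 (means of 0.0860 and 0.111 CPM in vehicle). They can have passed that filter only through groups in which they were high. The counts and medians are therefore not evidence about the list. GAS6, a ligand of AXL, was at 0.607 and 0.526 CPM in vehicle and at 5.63 and 5.30 with Vem, a log2 fold change of 3.26 (SE 0.361, adjusted p = 1.37e-06). AXL itself was barely counted, while TYRO3 and MERTK, receptors of the same family, had means of 64.1 and 51.7 CPM with Vem. IGF1, a ligand of IGF1R, went from 2.78 and 2.43 CPM to 9.60 and 14.4 with Vem, a change of 2.20 (SE 0.222, adjusted p = 4.88e-07), while IGF1R fell. KITLG, the ligand of KIT, fell with Vem from 16.8 and 14.0 CPM to 7.86 and 8.38, by -0.92 (SE 0.172, adjusted p = 0.000286). KITLG rose with RSV to 30.2 and 32.9 CPM, by 1.04 (SE 0.151, adjusted p = 6.85e-05).

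RSV also raised ligands of EGFR. EGF was at 1.82 and 2.23 CPM in vehicle and at 15.3 and 16.3 with RSV, a log2 fold change of 2.95 (SE 0.197, adjusted p = 4.15e-08), and HBEGF went from 11.1 and 11.0 CPM to 40.0 and 25.4, a change of 1.56 (SE 0.187, adjusted p = 1.16e-05). RSV raised EGF in cells given Vem as well, by 2.17 (SE 0.27, adjusted p = 1.26e-05), and in cells given TCDD by 2.14 (SE 0.202, adjusted p = 1.23e-06). HGF, the ligand of MET, had at most 5 counts in any library.

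Among 28 other receptor tyrosine kinases, 18 were tested. RSV raised 9 of them (20.5% of all tested genes were called higher) and lowered 2 (20.4%), with a median log2 fold change of 0.68 against -0.00176 for all tested genes. Some of the 18 were low and can have passed the low-count filter only through groups in which they were high. CSF1R, KDR and PDGFRA had means of 0.0658, 0.0253 and 0.187 CPM in vehicle and 0.632, 0.467 and 1.20 with RSV. ERBB4, also low, went from 1.19 to 0.639. The counts and medians are therefore not evidence about the list. Vem raised 2 (25.4%) and lowered 5 (27%), a share of lower calls near that of all genes, with a median of -0.19 against -0.03. TCDD raised 2 (4.5%). EPHA2, an ephrin receptor, fell from 23.4 and 22.8 CPM in vehicle to 3.69 and 2.77 with Vem, by -2.83 (SE 0.219, adjusted p = 2.50e-08), and rose to 62.5 and 42.7 with RSV, by 1.18 (SE 0.164, adjusted p = 4.53e-05). FGFR4 fell with Vem by -1.48 (SE 0.181, adjusted p = 4.28e-06) and FGFR3 by -1.02 (SE 0.338, adjusted p = 0.0183), while FGFR1 was at 0.51, or -0.14 under spike-in scaling. The collagen receptors DDR1 and DDR2 rose with RSV by 3.25 (SE 0.429, adjusted p = 2.85e-05) and 1.23 (SE 0.228, adjusted p = 0.000506). DDR1 was low in vehicle, at 0.506 and 0.162 CPM, and at 3.68 and 2.52 with RSV. MERTK, of the family of AXL, was at 58.3 and 57.0 CPM in vehicle and at 77.3 and 76.9 with TCDD, a change of 0.42 (SE 0.0965, adjusted p = 0.0153).

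Downstream of the receptors, all 26 listed adaptors and signalling subunits were tested, and Vem raised 7 and lowered 7 (25.4% and 27% of all tested genes) while RSV raised 5 and lowered 6 (20.5% and 20.4%), which are near the shares over all genes. PIK3R3, a regulatory subunit of PI3 kinase, rose with Vem by 1.07 (SE 0.121, adjusted p = 1.77e-06), as did GAB1, a docking protein used by MET, by 0.92 (SE 0.143, adjusted p = 5.19e-05). PTPN11, the phosphatase SHP2, fell with RSV by -0.69 (SE 0.117, adjusted p = 0.000252). IRS2, a docking protein of insulin and IGF receptors, was the 1 adaptor called with TCDD, at 0.56 (SE 0.0998, adjusted p = 0.00309).

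Of the negative regulators, 18 of 21 were tested. Vem lowered 7 (27% of all tested genes) and raised 2 (25.4%), and RSV raised 5 and lowered 4, near the 20.5% and 20.4% of all genes. SH2B3, an adaptor that restrains signalling from KIT and cytokine receptors, fell with Vem from a mean of 139.5 to 21.8 CPM, by -2.68 (SE 0.122, adjusted p = 1.12e-10), and LRIG1, which promotes the breakdown of ERBB receptors, fell by -0.77 (SE 0.154, adjusted p = 0.000513). ERRFI1, an inhibitor of EGFR and ERBB2, rose with RSV from 23.6 to 54.3 CPM, by 1.20 (SE 0.104, adjusted p = 5.87e-07). Of 5 resistance genes that the study names beside AXL, 4 were tested and NRP1 was not. Vem lowered 3 of them (27% of all tested genes), with ITGA1 at -2.46 (SE 0.261, adjusted p = 8.55e-07) and LPAR1 at -1.68 (SE 0.345, adjusted p = 0.000631). RSV raised 2 of the 4 (20.5% of all tested genes). ZEB1 had means of 0.121 CPM in vehicle and 1.24 with RSV, so it can have passed the filter only through RSV groups. These genes are ones that the study itself singles out, so their counts are not independent evidence of a direction.

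The summed level of 6 fibroblast markers was 34.6 to 42.1 CPM with TCDD, 14.4 to 18.0 in vehicle and 9.14 to 10.6 with Vem. Most of it was LUM, with means of 34.5 CPM with TCDD, 12.5 in vehicle and 5.87 with Vem. FAP had means of 2.89 CPM with TCDD, 1.61 in vehicle and 3.23 with Vem. COL1A1 (0.745 and 1.49) and COL1A2 (0.0451 and 0.400) were lower with TCDD than in vehicle. COL3A1 had at most 3 counts in every library. The summed level of the 9 melanocytic markers was 48269 to 51615 CPM with Vem, 26326 to 27265 with TCDD, 19459 to 20553 in vehicle and 11207 to 12405 with RSV. Most of it was PMEL, TYRP1 and DCT. Vem raised 6 of the 9 (25.4% of all tested genes) and lowered 1 (27%), S100B, from a mean of 32.6 to 9.23 CPM. RSV lowered 7 (20.4%) and raised 1 (20.5%), S100B, to 56.0 CPM. TCDD raised 3 (4.5%). MITF and SOX10 had means of 903 and 688 CPM with TCDD against 1068 and 719 in vehicle, and neither was called. Markers of keratinocytes and epithelium (14.6 to 27.1 CPM in sum), endothelium (0.221 to 1.92) and leukocytes (0.0809 to 1.37) were below the melanocytic sum in every library. The part of any of these in the receptor levels was not tested.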

How the data were processed

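Total RNA of 501Mel cells was sequenced as stranded mRNA libraries with paired reads. The authors aligned reads with STAR 2.4.0a to hg19 (GRCh37) and used featureCounts to count them by gene symbol (Subread 1.5.0-p3). The deposited values are raw counts, and the annotation release is not given in the sources used here. PCR copies were not removed, so Poisson intervals cover counting error only.

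The 96 control rows, 92 of them ERCC, were removed and filterByExpr kept 16080 of 56638 genes. edgeR 4.0.16 (R 4.3.3) with TMM factors of 0.890 to 1.08 was used to fit a quasi-likelihood model of the 6 groups to the 12 libraries (common biological coefficient of variation 0.0915), and 12 main comparisons and interactions were tested. The SE is the absolute log2 fold change divided by the root of F. With 2 libraries against 2, permuting libraries for 1 gene cannot reach the threshold. Replicates differed with a chi-square of 4.80 to 23.4 for each degree of freedom, so no libraries were merged. Simulated data for Vem against vehicle (15707 genes, 200 changed) gave 164 calls among changed genes and 17 among the others.

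Members and gene lists were chosen with earlier results of these data known. All 10 members are named. From each list, the up to 3 called genes per comparison with the largest change, no overlap between groups and 50 or more counts on average in the higher group could be named, and for each member the 3 genes with the highest Pearson r of log2(CPM + 1) among genes with a mean CPM of at least 1. Loci are from GENCODE and promoter windows from RefSeq, placed on GRCh37 by matching their sequence. Alternatives were RLE factors, DESeq2 1.42.0, both filters, a replicate block, only the groups compared, spike-in scaling and leaving out each library.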

Additional observations from a re-analysis of the deposited data

Results flagged for a closer look

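For ERBB3 the interaction of RSV and Vem was called with all 12 libraries, at 0.90 on the log2 scale (SE 0.289, adjusted p = 0.0346, edgeR, adjusted after Benjamini and Hochberg). Of all tested genes, 22.7% were called in the same test. ERBB3 had 8.76 and 13.4 CPM in vehicle, 11.3 and 9.46 with RSV, 6.82 and 5.84 with Vem, and 10.2 and 12.1 with RSV+Vem. DESeq2 gave 0.88 (adjusted p = 0.0487). Under spike-in scaling the interaction was 0.97 and was not called. Leaving out each library in turn gave 0.54 to 1.17, with 0.54 without vehicle replicate 2. The call was lost in several of these fits, as given above, so it rests on single libraries.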

How the results depend on the processing

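Of 445 alternative values of the 41 called member values, 366 kept direction and call, 70 kept direction without the call and 9 turned, all 9 under spike-in scaling: with Vem KIT to -0.31 and FGFR1 to -0.14, with RSV+Vem KIT to -0.29 and FGFR1 to -0.36, with RSV+TCDD ERBB2 to -0.59 and KIT to -0.85 (all against vehicle), and against RSV, ERBB2 to -0.049 and KIT to -0.0788 with RSV+Vem and KIT to -0.63 with RSV+TCDD. Counts of calls here are over all tested members, EGFR and NGFR included, so they are not evidence about the list. Numbers in brackets are the calls among all 16080 tested genes under spike-in scaling. Against vehicle, that scaling left 3 members called for Vem (3770), 0 for TCDD (10), 1 for RSV (374) and 2 for RSV+Vem (3621). For RSV+TCDD against vehicle (10128), the calls became ERBB3, MET, IGF1R and FGFR1, all lower. The scaling left 1 for RSV+Vem against Vem (391) and 0 for RSV+Vem against RSV (483). It left 1 for Vem against TCDD (1553) and 0 for the interaction of RSV and Vem (6). For RSV+TCDD against RSV (6446), the calls became ERBB3, FGFR1 and NGFR, all lower, in place of KIT. For RSV+TCDD against TCDD (1806), NGFR stayed called, MET and KIT did not, and EGFR became called at -2.13 (adjusted p = 0.0435). The cause was not tested. TCDD against vehicle called 1 member with at least 10 counts in every library, which leaves EGFR untested, with DESeq2, with only the groups compared and with the replicate block. RSV+TCDD against TCDD called 5 with only the groups compared, and RSV+TCDD against RSV called 2 with no filter and 0 with only the groups compared. The differences between replicates, taken over 15 pairs of groups, had correlations from -0.50 to 0.53, above 0.1 in 6 and below -0.1 in 5, so the replicate numbers were not taken as pairing the libraries. The 3 RSV groups correlated with each other (0.53, 0.42 and 0.37). With the replicate block EGFR with TCDD was 2.03 (adjusted p = 0.0523), the one member call that this lost.

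Leaving out each library in turn gave 5 to 7 members called for Vem, 1 to 2 for TCDD, 3 to 4 for RSV, 3 to 5 for RSV+Vem and 3 to 5 for RSV+TCDD against vehicle, 2 to 3 for RSV+Vem against Vem, 2 to 3 for RSV+Vem against RSV, 1 to 4 for RSV+TCDD against TCDD, 0 to 1 for RSV+TCDD against RSV, 5 to 6 for Vem against TCDD and 0 to 1 for the interaction of RSV and Vem. A lone library in a group is then assumed to vary like the other groups. These counts include EGFR and NGFR, which passed the low-count filter only through the groups in which they were highest. No share of all tested genes is set beside them. They describe how far the calls depend on single libraries and are not evidence about the list. Depth limits AXL, PDGFRB, EGFR and NGFR, whose counts of 0 to 34 per library carry wide intervals.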
